A study of Homo sapiens with 6 samples.

Results

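The granins and neuropeptides described here are 10 messenger RNAs of the regulated secretory pathway, namely CHGA, CHGB, SCG2, SCG3, SCG5, VGF, NPY, GAL, VIP and PCSK1N. They were taken by symbol from the 60676 genes of the count table, and each symbol mapped to 1 Ensembl gene. All 10 passed the minimum of 10 counts summed over the 6 libraries and were tested among 12565 genes. The libraries came from SK-N-BE cells, an established neuroblastoma line of human origin, after 1.5 days of differentiation in medium with 10 μM retinoic acid, a treatment shared by every group. RNA was recovered from a native cell extract with biotinylated antisense probes and streptavidin beads, a procedure that retrieves a target RNA together with the RNAs attached to it. The 3 groups of 2 libraries each were input, a sample of the extract set aside without probes, CyCoNP PD, the pull-down with probes against the long noncoding RNA CyCoNP (LINC02381), and LacZ PD, the pull-down with probes against a bacterial gene that served as the control. Dextran sulfate was added to both pull-downs and not to input, so probe set and handling both separate the pull-downs from input. The study calls its samples biological duplicates, the material is a single cell line, and the comparisons therefore cover the spread between these cultures only.

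Granins are acidic proteins that are packed into dense-core vesicles, the storage organelles of neuroendocrine cells, and that help these vesicles to form. Inside the vesicle, prohormone convertases cut granins and neuropeptide precursors into shorter peptides, which are released when the cell is stimulated. Cells of the sympathoadrenal lineage, from which neuroblastoma arises, are known for dense-core vesicles that hold granins and neuropeptides beside catecholamines.

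The libraries held between 18870 and 1512148 counts, with LacZ PD 1 the shallowest, where 3 counts correspond to 159 CPM (counts scaled by the library total, as the deposited tables give them). CyCoNP itself gave 20 and 39 counts in input, 11687 and 3507 in CyCoNP PD, with 1 and 20 in LacZ PD, and the high libraries were those labelled as the CyCoNP pull-down. All 12 sympathoadrenal markers that were looked up, among them PHOX2A, MYCN and STMN2, were detected in both input libraries, and their summed level lay between 2212 and 3379 CPM in the 6 libraries. Epithelial, immune and endothelial marker lists summed to at most 14.3 CPM in any library. SOX10, MBP, KRT5, KRT14, CDH1, PTPRC, CD3E, LYZ, PECAM1 and VWF had 0 counts in both input libraries.

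In the extract all 10 mRNAs were abundant. By mean CPM in input they ranked between 178 (NPY) and 1967 (SCG5) among the 18861 genes detected there. Per kilobase of transcript NPY led with 1655 ± 1752 CPM per kilobase (SD, n = 2), followed by GAL (488 ± 423), VGF (319 ± 243), SCG2 (218 ± 53.6), CHGA (162 ± 99.2), CHGB (155 ± 34.7), PCSK1N (101 ± 20.4), SCG3 (89.7 ± 34.7), VIP (74.9 ± 20.02) and SCG5 (60.3 ± 14.6). Of the neighbours in this order, only CHGB and PCSK1N had input libraries whose levels per kilobase did not overlap, so most of the order was not resolved by 2 libraries. Counts of long cDNA reads need not scale with transcript length, and division by length raises short transcripts such as NPY and GAL. By mean CPM in input the order was NPY (919), VGF (813), SCG2 (530), CHGB (381), GAL (365), CHGA (322), SCG3 (283), VIP (118), PCSK1N (104) and SCG5 (72.2). Together the 10 mRNAs took 0.397% and 0.385% of all counts in input, 0.271% and 0.355% in CyCoNP PD, with 0.376% and 0.423% in LacZ PD. The 95% Wilson interval of the lowest share, in CyCoNP PD 1, ran from 0.263% to 0.279%, and that of the shallow LacZ PD 1 from 0.298% to 0.474%. These intervals cover counting error only, since reads after PCR are not independent molecules. Both CyCoNP PD libraries thus lay below both input libraries in the summed share, while LacZ PD overlapped input, and no test was made of the sum. Without NPY the shares were 0.374% and 0.224% in input and 0.234% and 0.228% in CyCoNP PD, so that these groups overlapped.

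**Figure D1:**
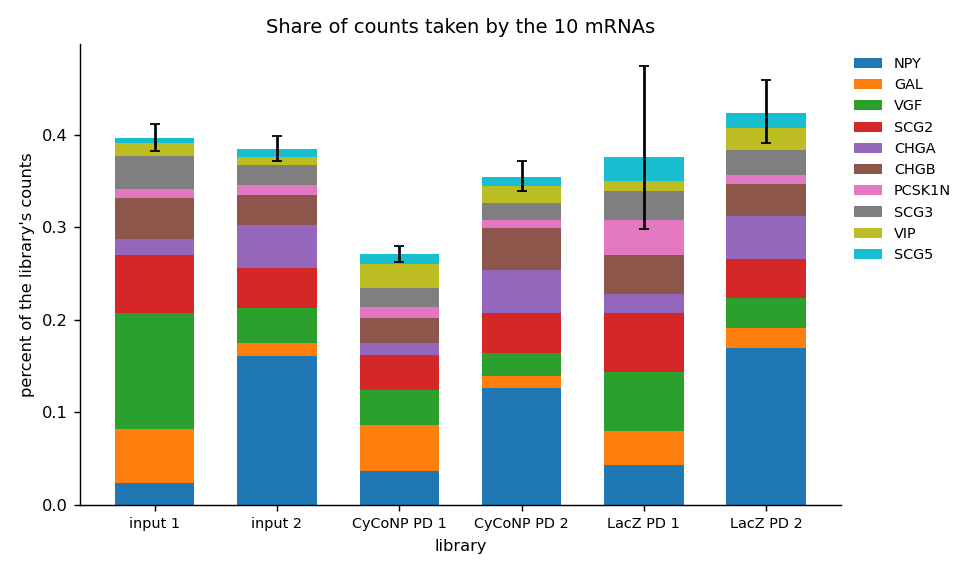
Share of each library's counts (percent, vertical axis) taken by the 10 mRNAs in each of the 6 libraries (horizontal axis), with 1 colour for each gene and the 95% Wilson interval of the sum as a black bar. The sum stays between 0.271% and 0.423%, and NPY takes a larger piece of each library numbered 2 than of the library numbered 1 of its group.

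The first question was whether any of these mRNAs was recovered with CyCoNP beyond its level in the extract. None was called. In CyCoNP PD against input, the quasi-likelihood test of edgeR, adjusted after Benjamini and Hochberg, gave an adjusted p of 1.00 for every one of the 10, where 0.127% of all tested genes were called at an adjusted p under 0.05 and a log2 fold change beyond 1 in either direction. At an unadjusted p under 0.05, edgeR passed 0 of the 10, beside 5.4% of all tested genes. DESeq2 also called 0 of the 10 (0.573% of all tested genes), and so did edgeR with the replicate number as a block (2.26%). The log2 fold changes ran from -1.24 (VGF) to 1.00 (VIP) with standard errors between 0.58 and 0.96, and CyCoNP itself stood at 7.59 (SE 0.96, adjusted p = 0.0137). The median of the 10 was -0.11, and that of all tested genes -0.01. For 8 of the 10 the log2 fold change lay within 1 of zero, as it did for 72.0% of all tested genes.

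**Figure D2:**
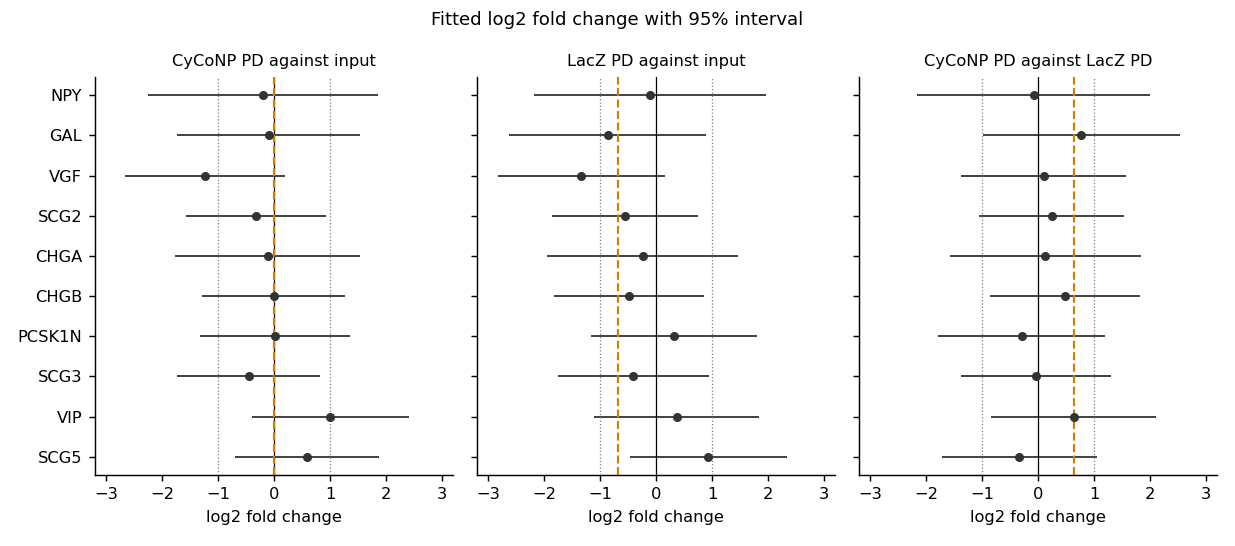
Fitted log2 fold change (horizontal axis) of each gene (vertical axis) in the 3 comparisons, with its 95% interval as a bar, the threshold of 1 in either direction as dotted lines and the median of all tested genes as a dashed line. Every interval spans zero, and the dashed median stands at -0.01, -0.68 and 0.64 from left to right.

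Among the granins, CHGA, chromogranin A, whose fragments include vasostatin and catestatin, had 182 and 461 CPM in input, 132 and 464 in CyCoNP PD, with 212 and 464 in LacZ PD. The lower value of each group was that of the library numbered 1, and the groups overlapped. The log2 fold change in CyCoNP PD against input was -0.12 with a 95% interval from -1.77 to 1.54. With the replicate block in edgeR it was -0.16 (interval -1.20 to 0.87). CHGB, chromogranin B, had 442 and 321 CPM in input, 271 and 454 in CyCoNP PD, with 424 and 343 in LacZ PD. Its groups overlapped as well, and the log2 fold change of CyCoNP PD against input was -0.01 (interval -1.28 to 1.27), so a rise or fall of up to 2.41-fold lies within the interval. SCG2, the precursor of secretoneurin, had 623 and 438 CPM in input, 383 and 423 in CyCoNP PD, with 636 and 421 in LacZ PD. Both CyCoNP PD libraries lay below both input libraries, at a log2 fold change of -0.32 (interval -1.57 to 0.93). SCG3, a granin that binds chromogranin A at the vesicle membrane, had 361 and 206 CPM in input, 205 and 183 in CyCoNP PD, with 318 and 271 in LacZ PD. Its CyCoNP PD libraries lay below those of both other groups, by less than 1 CPM at the closest point with input, but on the TMM scale they overlapped both, at 248 and 209 CPM beside 381 and 247 in input. The log2 fold change against input was -0.46 (interval -1.73 to 0.82).

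VGF, a granin-like protein named for its induction by nerve growth factor, had the lowest log2 fold change of the 10 in both pull-downs when all 6 libraries were used. It stood at 1251 and 375 CPM in input, 375 and 258 in CyCoNP PD, with 636 and 328 in LacZ PD. Input 1 was the highest of the 6 libraries, and the separation of CyCoNP PD from input was less than 1 CPM, with overlap on the TMM scale (454 CPM in CyCoNP PD 1 against 451 in input 2). The log2 fold change in CyCoNP PD was -1.24 (SE 0.67, edgeR adjusted p = 1.00), in DESeq2 -1.35 (unadjusted p = 0.047, adjusted p = 0.730), and with the replicate block in edgeR -1.11 (unadjusted p = 0.047, adjusted p = 0.460). These were the only unadjusted p-values under 0.05 among the 10 in the edgeR, DESeq2 and block fits of the 3 comparisons. In CyCoNP PD against input, 373 of the 12565 tested genes had an unadjusted p under 0.05 in DESeq2, and 1332 with the block. Without input 1 the log2 fold change was -0.26, and without input 2 it was -1.81.

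The remaining granin-related members act on the convertases. SCG5, the chaperone of prohormone convertase 2, had 59.9 and 84.6 CPM in input, 109 and 101 in CyCoNP PD, with 265 and 157 in LacZ PD. Both pull-downs lay above input and LacZ PD lay above CyCoNP PD, although the first LacZ PD value rests on 5 counts. Its log2 fold change was 0.59 (interval -0.70 to 1.88) in CyCoNP PD against input and 0.93 (interval -0.46 to 2.33) in LacZ PD against input. SCG5 shares 1129 exon bases on the same strand with the readthrough gene ARHGAP11A-SCG5. The Ensembl gene of that readthrough is not among the genes of the count table, so its reads cannot be told apart from those of SCG5 here. PCSK1N encodes proSAAS, an inhibitor of prohormone convertase 1. It had 89.1 and 119 CPM in input, 113 and 89.3 in CyCoNP PD, with 371 and 99.9 in LacZ PD. Its groups overlapped, the high LacZ PD 1 value rests on 7 counts, and the log2 fold change in CyCoNP PD was 0.02 (interval -1.32 to 1.36).

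The 3 neuropeptide precursors behaved differently from one another across libraries. NPY, neuropeptide Y, a peptide that sympathetic neurons release together with noradrenaline, had 231 and 1606 CPM in input, 367 and 1266 in CyCoNP PD, with 424 and 1691 in LacZ PD. The library numbered 1 was low and that numbered 2 high in each group. The unpaired interval of the log2 fold change in CyCoNP PD against input was wide, from -2.26 to 1.86 around -0.20. With the replicate block in edgeR the value was 0.24 (interval -0.92 to 1.40). Without input 2 the unpaired value was 1.96. GAL, the precursor of galanin, had 589 and 141 CPM in input, 495 and 120 in CyCoNP PD, with 371 and 214 in LacZ PD. Here the library numbered 1 was the higher in each group, and the groups overlapped. The log2 fold change in CyCoNP PD against input was -0.10 (interval -1.74 to 1.54), and with the replicate block -0.15 (interval -1.19 to 0.89). VIP, the precursor of vasoactive intestinal peptide, had 141 and 96.0 CPM in input, 259 and 186 in CyCoNP PD, with 106 and 243 in LacZ PD. Both CyCoNP PD libraries lay above both input libraries, with a fitted fold of 2.003 (95% interval 0.758 to 5.29), a log2 SE of 0.65 and an edgeR adjusted p of 1.00, while LacZ PD spanned both groups. The value of LacZ PD 1 rests on 2 counts, with a 95% Wilson interval from 29.1 to 386 CPM. VIP shares 326 exon bases with the antisense gene LINC02840, which had 2 counts in the 6 libraries.

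**Figure D3:**
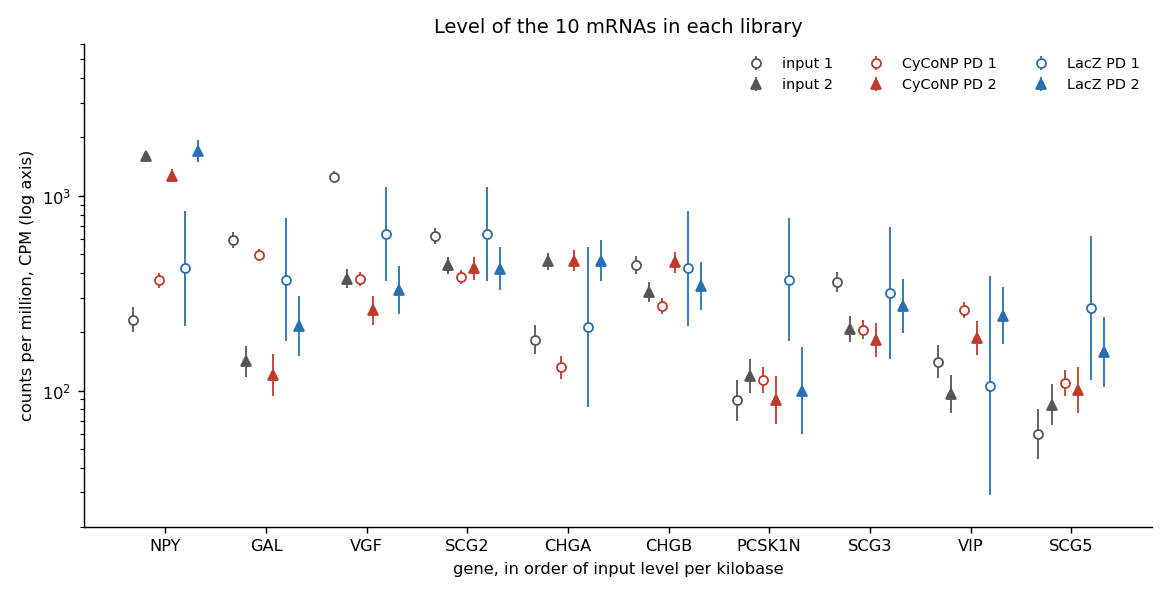
CPM (vertical axis, log scale) of each of the 10 genes (horizontal axis, in order of input level per kilobase) in the 6 libraries, with open circles for the libraries numbered 1, filled triangles for those numbered 2 and bars for the 95% Wilson interval of the count. NPY and CHGA split by library number in every group, and the LacZ PD 1 intervals are the widest.

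Read by overlap alone, VIP and SCG5 had both CyCoNP PD libraries above both input libraries in CPM, 2 of 10 beside 15.9% of all tested genes. SCG2, SCG3 and VGF had both below, 3 of 10 beside 20.3%. On the TMM scale VIP and SCG5 were still above (17.2% of all tested genes), but SCG2 was the only member below (18.6%). Libraries of the same number were also set against each other, on the TMM scale. VIP was 2.11 times as high in CyCoNP PD 1 as in input 1 and 1.85 times as high in CyCoNP PD 2 as in input 2. SCG5 stood at 2.09 and 1.14 times, and VGF at 0.344 and 0.658 times. NPY stood at 1.82 times in the libraries numbered 1 and 0.753 times in those numbered 2. Of the 10 mRNAs, 2 were above input within both numbers (26.3% of all tested genes), 5 below within both (30%) and 3 went opposite ways. In CPM of the library total 4 were below within both numbers.

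The control pull-down gave the background of the procedure. In LacZ PD against input edgeR called 0 of the 10 and 0% of all tested genes, and at an unadjusted p under 0.05 it passed 0 of the 10 beside 7.02% of all tested genes. DESeq2 called 0 of the 10 (0.43% of all tested genes), as did the fit with the replicate block (0.923%). The log2 fold changes ran from -1.33 (VGF) to 0.93 (SCG5), with adjusted p-values in edgeR from 0.739 to 0.986. SCG5 was the only member with both LacZ PD libraries above both input libraries (10.6% of all tested genes), and 0 members had both below (33.7%). On the TMM scale SCG5 was again the only one above (5.75%), and CHGB, SCG2 and VGF were below (39.9%). Of the 12565 tested genes only 1515 had at least the 354 counts of the least counted member. The LacZ PD libraries detected 5065 and 9340 genes. The shares and medians of all tested genes in this comparison are therefore not matched to the members in counts. The median log2 fold change was -0.32 for the 10 and -0.68 for all tested genes, a difference of 0.36. Scaling by library size alone moved the median of all tested genes by 0.34 and turned that of the 10 to 0.10, a difference of 0.44. DESeq2 gave medians of -0.23 for the 10 and -0.35 for all tested genes, so the distance between them depended on the tool. VGF had the lowest log2 fold change against input in both pull-downs, and those comparisons share the same input libraries. In LacZ PD its value was -0.36 without input 1 and -2.05 without input 2, and without input 1 NPY was lower than VGF in both pull-downs.

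CyCoNP PD was then set against LacZ PD. edgeR called 0 of the 10 and 0% of all tested genes, and at an unadjusted p under 0.05 it passed 0 of the 10 beside 5.2% of all tested genes. DESeq2 called 0 of the 10 (0.302% of all tested genes), and the replicate block also called 0 (0.772%). The log2 fold changes ran from -0.34 (SCG5) to 0.77 (GAL), with a median of 0.11 beside 0.64 for all tested genes. CyCoNP itself, at 6.39 (SE 0.93), had an adjusted p of 0.0785 in edgeR without the block and was not called by that fit. DESeq2 called it, at 6.17 (adjusted p = 5.49e-15), as did edgeR with the replicate block, at 6.51 (adjusted p = 1.65e-09). With library size alone the median of the 10 was -0.40 and that of all tested genes 0.22, so the sign of the former depended on the scaling. DESeq2 gave -0.02 and 0.23. No member had both CyCoNP PD libraries above both LacZ PD libraries in CPM (29.3% of all tested genes), and SCG3 and SCG5 had both below (9.57%). On the TMM scale SCG2 was above (35.9%) and SCG5 below (4.25%). As with LacZ PD against input, the shares and medians of all tested genes are not matched to the members in counts. VIP, at 0.63 (SE 0.69, edgeR adjusted p = 0.871), was not separated from its level in the control, and the value was 0.13 without LacZ PD 1 and 2.31 without LacZ PD 2.

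Sequence complementarity between the probes and these mRNAs was examined next, since a probe can in principle anneal to an RNA other than its target. The longest exact complementary stretch between any of the 22 CyCoNP probes and the canonical GENCODE v44 transcript was 8 to 11 bases in the 10 mRNAs, with a median of 10, which is also the median of the 12528 tested genes with a transcript. SCG2 and SCG5 held the longest stretches, of 11 bases, a length that 21.9% of those genes reached. The probes concerned are shown with 1 example of a probe that matched CyCoNP over its whole 20 bases. CyCoNP alone among the 12528 transcripts reached that length, and capitals mark the complementary bases.
CyCoNP probe 11, for SCG2: caaagacgGAAGCTGCTTCt
CyCoNP probe 7, for SCG5: taaTCAGGGGTGTTctgctc
CyCoNP probe 2, for CyCoNP: GGGAACTGGAGGGAGAGGTC
The SCG2 stretch lies in the coding sequence at chr2:223599197-223599207 on the minus strand of GRCh38, and the SCG5 stretch in the coding sequence at chr15:32684577-32684587 on the plus strand. VIP had the shortest stretch of the 10, 8 bases, which 98.4% of tested genes reached. Against the 5 LacZ probes the longest stretches were 7 to 9 bases.

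NPY, CHGA and GAL differed between libraries by their replicate number more than by their group, which was noticed after the values were seen and is given without a test. On the TMM scale NPY was 7.90 times as high in input 2 as in input 1, 3.27 times as high in CyCoNP PD 2 as in CyCoNP PD 1 and 6.70 times as high in LacZ PD 2 as in LacZ PD 1. For CHGA the same ratios were 2.87, 3.34 and 3.67. These 2 members were at least 2-fold higher in the library numbered 2 in all 3 groups. That held for 2.68% of all tested genes and for 1.12% of the 1515 genes with as many counts as the least counted member. A 2-fold difference in all 3 groups in either direction was shown by 6.46% of all tested genes and 5.61% of those 1515. GAL went the other way, 3.66 times as high in input 1 as in input 2 and 4.34 times in CyCoNP PD, a 2-fold difference that 6.34% of those 1515 genes showed in the same direction, but 1.03 times in LacZ PD. The ratio of VGF in the same direction was 2.93 in input, 1.53 in CyCoNP PD and 1.15 in LacZ PD. Ratios of CHGB, SCG2, SCG3, SCG5, VIP and PCSK1N fell on both sides of 1, although the LacZ PD libraries numbered 1 and 2, the shallowest, differed by 3.84 times in VIP (higher in LacZ PD 2) and 2.21 times in PCSK1N (higher in LacZ PD 1).

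Of the variation of log2 TMM-scaled CPM over the 6 libraries, the replicate number accounted for 95.2% in CHGA, 94.3% in NPY and 62.4% in GAL, and the group for 4.08%, 0.981% and 8.12%. In SCG2 and SCG5 the group accounted for 82.7% and 79.5%, beside a median of 44.02% over all tested genes. The share of the replicate number exceeded that of the group in 3 of the 10 members and in 29.7% of all tested genes, so the 10 as a group were near the background. Other RNAs moved with the number too. The summed level of 8 mesenchymal or fibroblast markers, of which 5 were detected in both input libraries and SNAI2 had 0 counts in both, was 531 and 39.1 CPM in input, 345 and 64.1 in CyCoNP PD, with 477 and 35.7 in LacZ PD, and its part in the levels of NPY, CHGA and GAL was not tested. The sympathoadrenal markers summed to 3379 and 3368 CPM in the same input libraries. A lower share of expressing cells and less RNA per cell cannot be told apart in such bulk libraries.

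**Figure D4:**
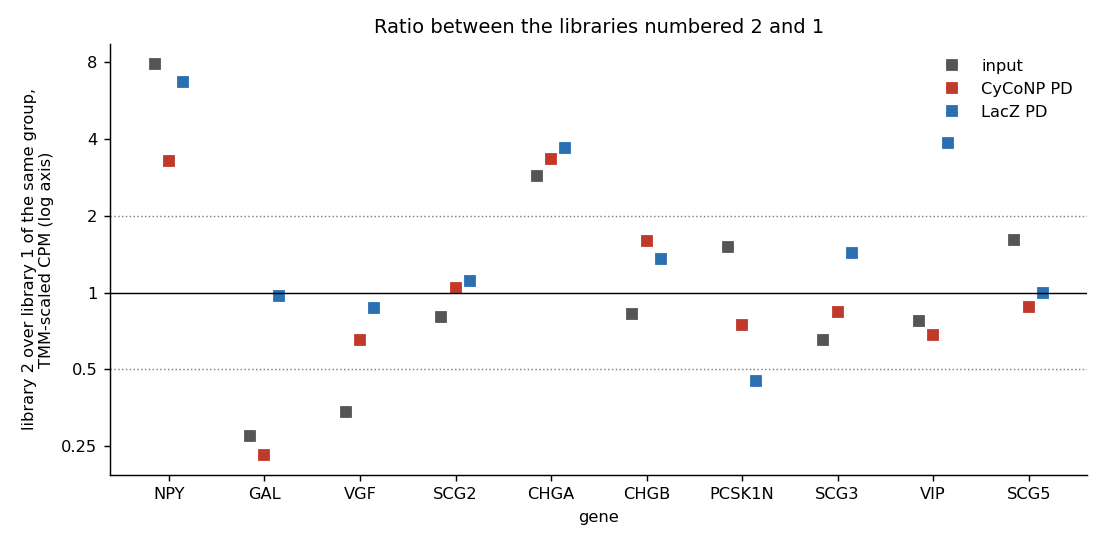
Ratio of the library numbered 2 to the library numbered 1 of the same group in TMM-scaled CPM (vertical axis, log scale) for each of the 10 genes (horizontal axis), with 1 square for each group and dotted lines at a 2-fold difference. NPY and CHGA lie above the upper line in all 3 groups, and GAL lies below the lower line in input and CyCoNP PD.

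Among the 326 tested genes with at least 0.5 times the input level of NPY, those whose log2 profile over the 6 libraries was most like that of NPY were GAS5 (Pearson's r = 0.987), ENSG00000264281 (0.982) and MALAT1 (0.980), as a description over 6 libraries whose depth differs. MALAT1, a nuclear long noncoding RNA, had 1270 CPM in input 1 and 6229 in input 2. Of the members CHGA was the most like NPY (r = 0.949) and GAL the least (r = -0.70).

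The promoters of the members were searched for the cAMP response element, the site of CREB-type factors that is known from several granin and neuropeptide genes, as a description only. RefSeq windows of 300 bases, 250 before and 50 after the transcription start (GRCh38.p14), were found for 7 members, CHGA, SCG3, SCG5, VGF, NPY, VIP and PCSK1N. The letters TGACGTCA, which read the same on both strands, were present in CHGA and VGF and in 1.85% of all 35116 windows. They are shown in capitals within 30 bases, read along the strand of the gene.
CHGA, chr14:92923085-92923114, plus strand: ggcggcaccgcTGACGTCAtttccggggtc
VGF, chr7:101165630-101165659, minus strand: tgaatgaacatTGACGTCAatggggcgggg
The motif begins 54 bases before the start of CHGA and 79 bases before that of VGF. The shorter core TGACG contained in it, searched on both strands, was present in 5 of the 7 windows (CHGA, SCG3, SCG5, VGF and VIP) and in 24.6% of all windows.

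The machinery that processes and stores these peptides was looked at through lists of genes, all of them measured in the count table. Of 9 prohormone processing genes 7 were tested, and edgeR called 0 in the 3 comparisons, as did DESeq2. The most abundant in input were CTSL, the protease cathepsin L (221 ± 62.4 CPM, SD, n = 2), QPCT, which cyclizes N-terminal glutamine (60.6 ± 48.2), and PAM, the amidating enzyme that finishes peptides such as NPY and VIP (34.9 ± 31.5). PAM had 41 and 10 counts in input, 13 and 2 in CyCoNP PD, with 0 and 1 in LacZ PD, and its log2 fold change was -2.21 in CyCoNP PD against input (SE 0.87, edgeR unadjusted p = 0.024, adjusted p = 0.809), the only gene of that list under an unadjusted 0.05 in edgeR, beside 5.4% of all tested genes. PCSK1 and PCSK2, the prohormone convertases on which PCSK1N and SCG5 act, had 0 counts in all 6 libraries, where 3 counts correspond to 4.18 and 3.79 CPM in input. CPE, carboxypeptidase E, which trims basic residues after convertase cleavage, had at most 5 counts in any library.

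Of 32 genes for dense-core vesicle formation, docking and exocytosis 28 were tested, and edgeR and DESeq2 called 0 in the 3 comparisons. At an unadjusted p under 0.05, edgeR passed 2 in CyCoNP PD against input (5.4% of all tested genes), 0 in LacZ PD against input (7.02%) and 1 in CyCoNP PD against LacZ PD (5.2%). The median log2 fold change of the list was -0.07 in CyCoNP PD against input, beside -0.01 for all tested genes, -1.14 in LacZ PD against input, beside -0.68, and 1.19 in CyCoNP PD against LacZ PD, beside 0.64. With DESeq2 the latter pair was -0.48 beside -0.35 and 0.70 beside 0.23. Both of these comparisons share the LacZ PD libraries. The most abundant in input were CYB561, the electron carrier of the vesicle membrane, with 214 and 92 counts, SYT1, the calcium sensor of exocytosis, with 159 and 87, and RAB2A, with 95 and 99. With the replicate block edgeR called RAB3A and VAMP2 higher in CyCoNP PD than in input (adjusted p = 0.00893 and 0.0181, beside 2.26% of all tested genes called), and RAB3A also higher than in LacZ PD (adjusted p = 0.0446, beside 0.772%), which were chosen for mention after their values were seen. RAB3A, a small GTPase of secretory vesicles, had 19.5 and 22.7 CPM in input, 41.0 and 196 in CyCoNP PD and, from 1 count each, 53.0 and 7.14 in LacZ PD, so that CyCoNP PD 2 stood apart and LacZ PD 1 lay above CyCoNP PD 1. Its log2 fold change was 2.49 against input (SE 0.79, adjusted p = 0.485 in edgeR without the block), and the adjusted p against LacZ PD without the block was 0.749. VAMP2, the vesicle SNARE synaptobrevin, had 13.9 CPM in each input library, 123 and 25.2 in CyCoNP PD, with 0 and 49.96 in LacZ PD, and CyCoNP PD 1 was the highest.

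Other peptide precursors were scarce beside the 10. Of 33 listed genes 10 reached the count minimum, and edgeR and DESeq2 called 0 in the 3 comparisons. At an unadjusted p under 0.05 edgeR passed SST and ADM in CyCoNP PD against input, which reached the count minimum through 1 library of that group only, so nothing is read from their p-values. The most abundant in input were CRH, corticotropin-releasing hormone, with 40 and 27 counts, CARTPT with 20 and 31 and NMB, neuromedin B, with 6 and 20. SST, somatostatin, had 19 counts in CyCoNP PD 1 and ADM, adrenomedullin, had 16, and both had 0 counts in the other 5 libraries. None of the 13 receptors for peptides of the members reached the minimum, and GALR1, a galanin receptor, had 1 and 3 counts in input and 0 in the pull-downs.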

How the data were processed

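Gene counts of 6 libraries of SK-N-BE cells were read from the table the authors deposited, with raw counts per gene and the same values as CPM deposited beside them. The authors basecalled Nanopore PCR-cDNA reads, removed short and low-quality reads, aligned the rest to GRCh38 with minimap2 2.24-r1122 and counted genes with Bambu against Ensembl annotation without new isoforms. Dividing each count by its library total gave the deposited CPM to within 5.09e-11. Levels are CPM of the library total. The TMM scale divides instead by the library's total over the tested genes, multiplied by edgeR's factor. That factor was 1.70 in LacZ PD 1 and 0.832 to 1.01 in the others.

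Genes with at least 10 counts in all went into edgeR 4.0.16 (R 4.3.3) and its quasi-likelihood F test with the 3 groups in one fit and Benjamini-Hochberg adjustment over 12565 genes. Calls needed an adjusted p under 0.05 and a log2 fold change beyond 1. The SE came from the F statistic. The alternatives were DESeq2 1.42.0, DESeq2's size factors, library size alone, no count filter, filterByExpr, only the compared groups, the replicate block and leaving out each library. The replicate-number ratios, their background and the overlap on the TMM scale were added after seeing the data.

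The deviations of same-numbered libraries from their group means correlated across genes at 0.445, 0.237 and 0.237, which is a hint of pairing from the data and not from the labels. The study set part of the total extract aside as input, but the labels do not say that equal numbers share an extract. The reported fit is unpaired, since the study names no block. With the block, the 95% interval of VGF in CyCoNP PD against input ran from -2.21 to -0.015 and no longer spanned zero. Counts of calls from the block fit are given beside its own. Replicates differed by more than sampling noise (chi-square per degree of freedom 18.4, 14.3 and 4.11). The members, gene lists and tests were chosen with earlier results of these data known. The genes named besides the members are CyCoNP, any list gene called by edgeR, the 3 list genes with the highest mean CPM in input, the 3 genes most like NPY, cell type markers from lists written with the design, genes that share exon bases with a member, and those said in the text to be chosen by their values. The motif search, PCSK1, PCSK2, CPE, SST, ADM and GALR1 were chosen in the same way. The values of 1 further marker, and the sum of the list that holds it, are not reported here. Symbols and coordinates came from GENCODE v44 on GRCh38, and figures were drawn with matplotlib 3.10.9.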

Additional observations from a re-analysis of the deposited data

How the results depend on the processing

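No member was called under any alternative, over 390 values of log2 fold change with a smallest adjusted p of 0.460 in edgeR or DESeq2, and 339 kept their sign. The summed share without NPY was 0.299% in input, 0.231% in CyCoNP PD and 0.294% in LacZ PD. On the TMM scale, 1 in place of 3 members had both CyCoNP PD libraries below input, 3 in place of 0 had both LacZ PD libraries below input, and CyCoNP PD lay above LacZ PD for 1 in place of 0 members and below for 1 in place of 2. The replicate block called 2 list genes in CyCoNP PD against input (RAB3A and VAMP2) and 1 in CyCoNP PD against LacZ PD (RAB3A), in place of 0, and changed no call of a member.

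The log2 fold changes that turned sign were as follows, and the cause was not tested. In CyCoNP PD against input, PCSK1N was -0.051 with DESeq2, -0.035 with library size alone, -0.023 without the count filter, -0.00095 with the replicate block and -0.052 with DESeq2's size factors, and NPY was 0.24 with the replicate block. In LacZ PD against input, NPY was 0.0050 with DESeq2, 0.012 with filterByExpr, 0.27 with library size alone and 0.029 with DESeq2's size factors, and with library size alone CHGA was 0.17 and SCG3 0.032. In CyCoNP PD against LacZ PD, library size alone gave VGF -0.53, CHGA -0.29, SCG2 -0.35 and CHGB -0.054. There, VGF was -0.057 with DESeq2, -0.016 with the replicate block and -0.058 with DESeq2's size factors, CHGA was -0.015 with DESeq2's size factors, SCG3 was 0.057 without the count filter and NPY was 0.29 with the replicate block.

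Leaving out each library in turn, where a group of 1 library was assumed to vary like the others, gave these ranges. In CyCoNP PD against input they were CHGA -1.23 to 0.85, CHGB -0.37 to 0.31, NPY -1.29 to 1.96, GAL -1.50 to 1.12 and PCSK1N -0.25 to 0.35. In LacZ PD against input they were CHGA -1.80 to 0.61, NPY -2.34 to 1.95, GAL -1.65 to 0.35, VIP -1.30 to 0.87 and PCSK1N -0.26 to 0.66. In CyCoNP PD against LacZ PD they were CHGA -0.98 to 1.70, SCG3 -0.23 to 0.53, VGF -0.088 to 0.37, NPY -1.17 to 2.16, GAL -0.50 to 1.46 and PCSK1N -0.63 to 0.28. The depth of LacZ PD 1 limits every comparison with the control, where the members had 2 to 12 counts.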
